A study of Mus musculus with 6 samples.

Results

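The miR-378 family of miRNAs was measured by small RNA sequencing of vesicles, small membrane sacs that cells shed, which came from cultured primary hepatocytes of wild-type C57BL/6J mice. Its members were taken by name, as mmu-miR-378a-3p, mmu-miR-378a-5p, mmu-miR-378b, mmu-miR-378c and mmu-miR-378d (named without the species prefix from here on), which are 5 of the 1976 mature miRNAs in the table. All 5 held reads, and all 5 passed the filter on low values that 181 miRNAs passed. The libraries form 2 groups of 3. The control group is vesicles, called exosomes in the labels, of hepatocytes given 0 µM palmitic acid, a saturated fatty acid used to load liver cells with lipid, and the other group is vesicles of hepatocytes given 600 µM. The labels give no other agent or allele, and do not state whether each library had its own animal or culture. The p-values hence reflect spread among libraries that may be technical.

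A miRNA is cut from 1 arm of an RNA hairpin, and its seed, bases 2 to 8 from the 5′ end, does most of the pairing with target messages. miR-378a is made from an intron of Ppargc1b, the gene of PGC-1β, a coactivator of genes for mitochondria and fatty acid oxidation, and both arms of its hairpin are known as regulators of lipid and energy metabolism. It is abundant in striated muscle, heart and brown fat, and in liver it has been linked to fat storage and insulin signalling. The other members come from separate loci and resemble its 3p arm.

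Sequences and positions show how closely the members resemble each other. Mir378b lies on GRCm38 chromosome 11, 88352773 to 88352864, plus strand, and Mir378c on chromosome 14, 46954830 to 46954928, minus strand. Both are inside introns of protein-coding genes, Msi2 and Samd4, but on the opposite strand. Mir378d, on chromosome 10, 126710282 to 126710391, minus strand, overlaps no protein-coding gene. By name, 3 of the 5 members matched the RefSeq table of mature sequences (GRCm38.p6). These are shown, 5′ to 3′ with the seed in capitals, because the change of each member has to be read against how few bases separate them.
miR-378b: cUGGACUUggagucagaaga
miR-378c: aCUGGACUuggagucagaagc
miR-378d: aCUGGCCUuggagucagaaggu

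Counted from the 5′ end of miR-378c, miR-378b starts 1 base later and otherwise differs in its last base (C21A), with 19 bases in common in 1 run. Its seed is therefore the seed of miR-378c moved by 1 base. miR-378d starts at the same base as miR-378c and differs at A6C, inside the seed, and at C21G. The 3 seeds are thus all different, and each is held by 1 of the 1679 mature names in that table. Neither arm of miR-378a is in it under these names, so the count does not show whether miR-378a-3p shares a seed. The hairpins, with the mature part in capitals, show that miR-378b sits on the 3′ side of its hairpin (bases 67 to 86 of 92), whereas miR-378c (bases 4 to 24 of 99) and miR-378d (bases 16 to 37 of 110) sit on the 5′ side.
Mir378b: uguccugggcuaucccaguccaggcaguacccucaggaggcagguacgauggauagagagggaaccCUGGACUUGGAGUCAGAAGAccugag
Mir378c: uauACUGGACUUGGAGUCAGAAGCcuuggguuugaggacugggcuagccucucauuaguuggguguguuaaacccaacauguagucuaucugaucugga
Mir378d: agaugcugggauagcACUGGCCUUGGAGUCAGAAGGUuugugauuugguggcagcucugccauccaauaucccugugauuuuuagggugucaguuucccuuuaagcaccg

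The rule by which reads that fit several members were counted is not given in the sources used here. A read cut short at its 3′ end can fit both miR-378b and miR-378c. Such overlap with miR-378a-3p, which the other members resemble, could not be checked without its sequence. The value of each single member and the ratios between members are therefore uncertain, and the family total is given beside the members.

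The deposited values are log2(adjusted count + 1), where the adjusted count is a read count moved to a common library size. Reads were recovered from them by inverting that step, with totals from 95249 to 657660 in controls and from 613472 to 799104 with palmitic acid. Reads other than the arms of miR-122 and its antisense neighbour miR-122b numbered only 29343 to 80743 in controls, against 534294 to 676787 with palmitic acid. A member's share of all reads and its share of reads other than miR-122 therefore differ most in controls, and both are given.

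As a family, miR-378 made up a far larger part of the reads with palmitic acid than in controls. The 5 members together had 31, 161 and 37 reads in control replicates 1, 2 and 3, which is 0.0325% (95% Clopper-Pearson interval 0.0221 to 0.0462), 0.0245% (0.0208 to 0.0286) and 0.0147% (0.0103 to 0.0202) of the library. With palmitic acid they had 15098, 9050 and 3964 reads, which is 1.89% (1.86 to 1.92), 1.19% (1.16 to 1.21) and 0.646% (0.626 to 0.667). Every palmitic acid library lay above every control library, and palmitic acid replicate 1 stood above the other two. Such intervals here express counting error and nothing else, because PCR copies molecules before they are read.

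The group means of the family share were 0.0239% ± 0.00896 and 1.24% ± 0.623 of all reads (SD, n = 3 each), a 51.9-fold ratio. Of reads other than miR-122 they were 0.125% ± 0.0667 and 1.44% ± 0.749 (SD, n = 3 each), an 11.5-fold ratio, and the single libraries were at 0.106%, 0.199% and 0.0703% against 2.23%, 1.35% and 0.742%. On the deposited scale the summed adjusted counts were 206 ± 202 and 4296 ± 2698, a log2 ratio of 4.38. That ratio was 5.59 without control replicate 2, which held the most family reads of the controls. The direction held on each of these scales, and its size depended on the scale by several-fold. More miRNA per vesicle and more vesicles from the cells that make it cannot be told apart in these libraries.

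**Figure D1:**
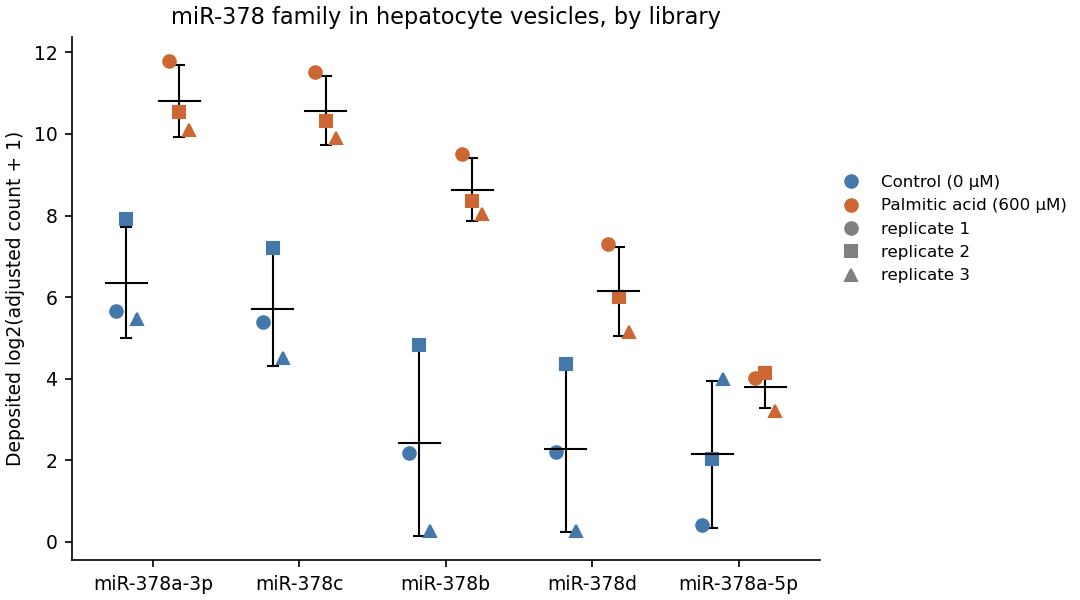
Deposited log2(adjusted count + 1) of the 5 miR-378 members in each library; colour marks the group, symbol shape the replicate, the horizontal line the group mean and the bar 1 SD (n = 3). The groups do not overlap for miR-378a-3p, miR-378c, miR-378b and miR-378d, while the control values of miR-378a-5p run from 0.40 to 4.0 and overlap its palmitic acid values of 3.21 to 4.13.

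Across the 181 tested miRNAs, limma on the deposited log2 values called 76 higher (42.0%) and 26 lower (14.4%) with palmitic acid at a Benjamini-Hochberg adjusted p below 0.05. Either direction took in 56.4%. Of the 5 members, 4 were called higher and 0 lower. The same counts were found at an unadjusted p below 0.05, where 47.0% of all tested miRNAs were higher and 14.9% lower. The same 4 members had groups that did not overlap with palmitic acid higher, as had 48.6% of all tested miRNAs. Of these 4, 2 (miR-378b and miR-378d) passed the filter only through the palmitic acid libraries, as did 50 of the 76. The counts are thus no support. The members' median log2 change, which includes miR-378b and miR-378d, was 4.45 against 1.94 over all tested miRNAs. With such a background, a call by itself sets a member little apart, and the size of the change is given beside it.

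miR-378a-3p, the guide strand of the founding hairpin and a regulator of the carnitine pathway through Crat, was the most abundant member in each of the 6 libraries. Its deposited log2 values were 5.67, 7.92 and 5.47 in control replicates 1, 2 and 3, from 16, 89 and 20 reads. With palmitic acid they were 11.80, 10.53 and 10.10, from 7287, 4229 and 1850 reads. Every palmitic acid library lay above every control library. By number of reads it was in place 97, 43 and 92 among the miRNAs of the control libraries and in place 13, 17 and 27 with palmitic acid. Its log2 value rose by 4.45 (SE 0.75, 95% interval 2.73 to 6.18) by limma, adjusted p = 0.00139. As a fold of adjusted count + 1 this is 21.9. In RPM (reads scaled to a common total of library reads) its means were 128 ± 44.9 and 5895 ± 3066 (SD, n = 3 each), and in RPM of reads other than miR-122 they were 676 ± 378 and 6839.9 ± 3683. The ratio of these means was 46.2 by the first measure and 10.1 by the second.

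miR-378c, which follows miR-378a-3p in abundance, had deposited log2 values of 5.38, 7.21 and 4.51 in controls, from 13, 54 and 10 reads. With palmitic acid the values were 11.51, 10.32 and 9.89, from 5980, 3663 and 1603 reads. The libraries kept the order seen for miR-378a-3p, with control replicate 2 highest among controls and palmitic acid replicate 1 highest of all 6, and the groups did not overlap. miR-378c rose by 4.88 (SE 0.75, 95% interval 3.13 to 6.62, limma adjusted p = 9.3e-04), a fold of 29.4 in adjusted count + 1. Its means of 86.1 ± 48.5 and 4968 ± 2439 RPM (SD, n = 3 each) had a ratio of 57.7, and of reads other than miR-122 the ratio was 13.3.

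miR-378b, the member with the shifted seed, showed the largest fitted change of the 5, on few control reads. Its reads numbered 1, 10 and 0 in the 3 control libraries, in replicate order, against 1479, 932 and 439 in the palmitic acid libraries. The deposited log2 values were 2.17, 4.83 and 0.27 against 9.50, 8.35 and 8.03, so the groups did not overlap, though the controls spread widely. In control replicate 3 a count of 0 allows a share of up to 0.00119% of the library (3 reads). The log2 change was 6.20 (SE 1.22, 95% interval 3.39 to 9.01, limma adjusted p = 0.00293), place 3 by size among the 181 tested miRNAs. Without control replicate 3 it was 5.12 (adjusted p = 0.0031), and without control replicate 2 it was 7.40 (6.7e-04). The width of that interval covers the changes of miR-378a-3p and miR-378c.

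miR-378d, the member with another base in the seed, was lower still. Its reads numbered 1, 7 and 0 in the controls against 321, 179 and 58 in the palmitic acid libraries, or 7.05 ± 6.10 and 244 ± 154 RPM (SD, n = 3 each). Its deposited log2 values were 2.19, 4.35 and 0.27 against 7.30, 5.99 and 5.14, and the lowest palmitic acid library stood only a little above control replicate 2. It rose by 3.88 (SE 1.17, 95% interval 1.17 to 6.59, limma adjusted p = 0.0214). Of 16 alternatives, 6 ended the call (adjusted p 0.00292 to 0.193 over the 16), among them the fits without control replicate 1 (adjusted p = 0.051) or palmitic acid replicate 1 (0.164) or 2 (0.0805). miR-378b and miR-378d each reached the filter's adjusted count of 10 in all 3 palmitic acid libraries and in only 1 control library, so that both passed it through the group in which they were high. Among the 76 miRNAs called higher, 50 reached it in all 3 palmitic acid libraries and in fewer than 3 control libraries.

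miR-378a-5p, the other arm of the miR-378a hairpin and a regulator of Med13, was the member with no call. Its reads numbered 0, 1 and 7 in the controls, in replicate order, against 31, 47 and 14 in the palmitic acid libraries. The deposited log2 values were 0.40, 2.03 and 4.0 against 4.02, 4.13 and 3.21, so that control replicate 3 lay within the range of the palmitic acid libraries. The log2 change of 1.64 (SE 0.84, 95% interval -0.30 to 3.58, limma adjusted p = 0.124) did not pass. In RPM of reads other than miR-122 the groups were at 48.5 ± 73.5 and 47.3 ± 21.9 (SD, n = 3 each, exact permutation p = 1), and relative to the median change of tested miRNAs the sign turned (-0.29). The interval of the change includes 0. Of the controls, replicate 3 had the highest miR-378a-5p value and the lowest miR-378a-3p value.

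**Figure D2:**
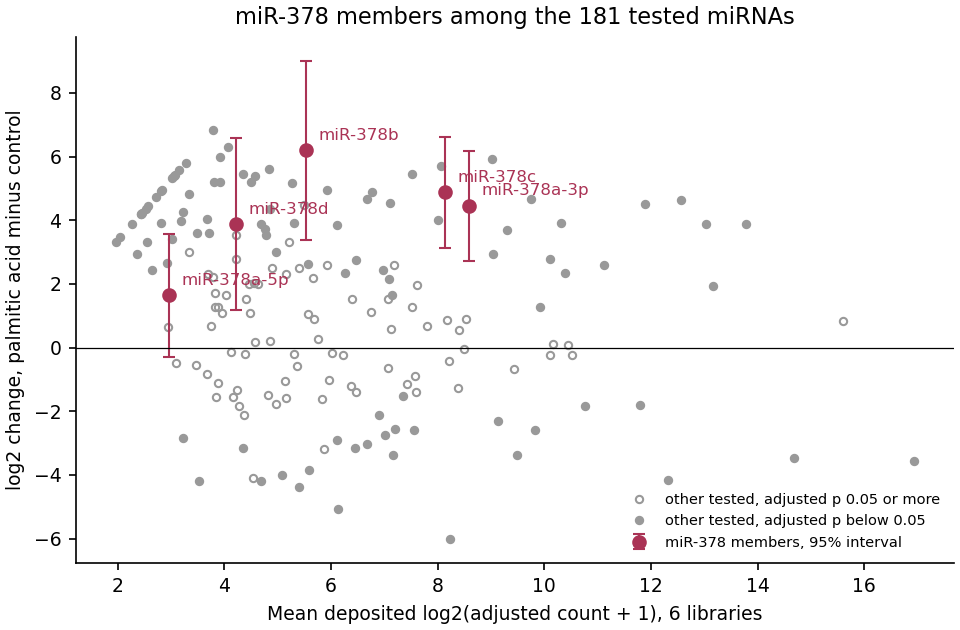
Log2 change with palmitic acid against mean deposited log2(adjusted count + 1) for the 181 tested miRNAs; grey points are other miRNAs (filled where the limma adjusted p is below 0.05) and red points the miR-378 members with their 95% intervals. miR-378b lies near the top at 6.20, miR-378c and miR-378a-3p lie close together at 4.88 and 4.45, and the interval of miR-378a-5p crosses 0.

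The make-up of the family reads was led by the same pair in both groups. miR-378a-3p held 53.6% ± 1.87 of the family in controls against 47.2% ± 0.904 in palmitic acid libraries, and miR-378c held 34.2% ± 7.47 and 40.2% ± 0.491 (SD, n = 3 each). miR-378b held 3.15% ± 3.11 and 10.4% ± 0.644, miR-378d 2.52% ± 2.26 and 1.86% ± 0.348, and miR-378a-5p 6.51% ± 10.7 and 0.359% ± 0.157. The shares of miR-378a-3p and of miR-378b did not overlap between groups (exact two-sided permutation p = 0.1 for each, the smallest that 3 libraries against 3 allow, and 0.25 adjusted over the 5 members). For the other members the groups overlapped. The exact permutation p was 0.4 for miR-378c, 0.7 for miR-378d and 0.6 for miR-378a-5p (adjusted 0.667, 0.7 and 0.7). The miR-378a-3p control shares rested on 31, 161 and 37 family reads in replicates 1, 2 and 3. Their Clopper-Pearson intervals for counting error were 33.1 to 69.8, 47.3 to 63.1 and 36.9 to 70.5. Each reached into the palmitic acid range of 46.7% to 48.3% and was far wider than the control SD. For miR-378b the control intervals were 0.0816 to 16.7, 3.02 to 11.1 and 0 to 9.49. All reached into that of palmitic acid replicate 1, 9.33 to 10.3.

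With palmitic acid the order of abundance was miR-378a-3p, miR-378c, miR-378b, miR-378d and miR-378a-5p in each library. In control replicates 1 and 2, miR-378a-3p and miR-378c also led, but miR-378b and miR-378d were level or within a few reads. In control replicate 3, miR-378a-5p with 7 of 37 family reads (18.9%, 95% Clopper-Pearson interval 7.96 to 35.2) took the place behind miR-378c, and miR-378b and miR-378d had no read. A count of 0 there allows up to 8.11% of the family. Below the leading pair, the order among control libraries was thus not fixed by these depths.

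**Figure D3:**
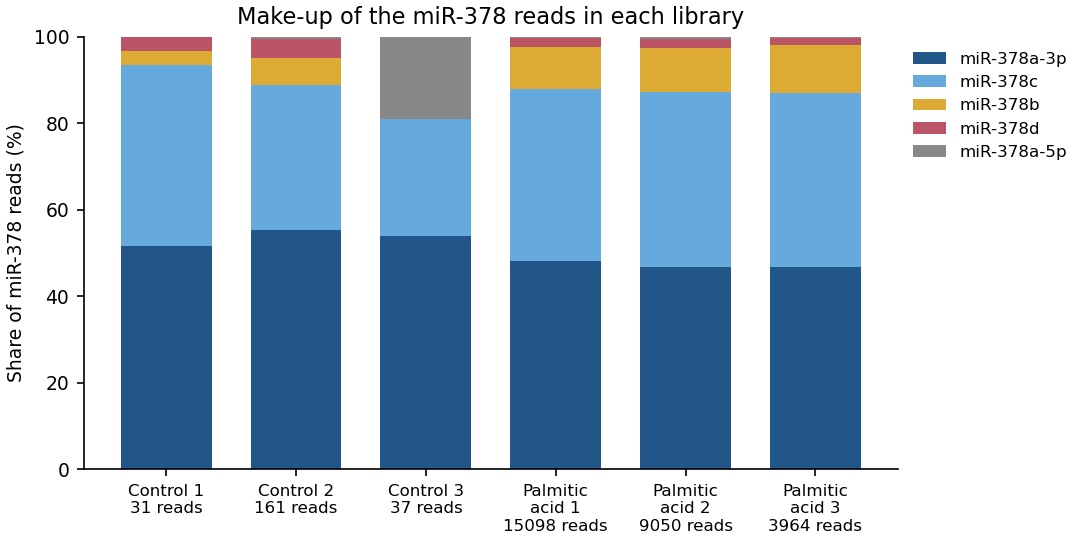
Share of each member in the miR-378 reads of each library, in percent, stacked to 100, with the number of family reads under each bar. The 3 palmitic acid bars are nearly alike, with miR-378a-3p at 46.7% to 48.3% and miR-378c at 39.6% to 40.5%, whereas the control bars, which rest on 31 to 161 reads, vary more.

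Set against miR-378a-3p within the same library, which takes the library scale out, miR-378c kept a narrow range among palmitic acid libraries. With palmitic acid, miR-378c made up 45.1% (95% Clopper-Pearson interval 44.2 to 45.9), 46.4% (45.3 to 47.5) and 46.4% (44.7 to 48.1) of the reads of the pair in replicates 1, 2 and 3, while the reads of miR-378a-3p ranged from 1850 to 7287. The 3 intervals overlapped. How far reads that fit both members enter this ratio was not tested. In controls it made up 44.8% (26.4 to 64.3), 37.8% (29.8 to 46.2) and 33.3% (17.3 to 52.8). The ratio of miR-378c to miR-378a-3p was 0.64 ± 0.159 in controls against 0.851 ± 0.0264 in palmitic acid libraries (SD, n = 3 each, exact permutation p = 0.1, 0.2 adjusted over 4 ratios). The 2 groups did not overlap, but control replicate 1 at 0.812 stood next to palmitic acid replicate 1 at 0.821.

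The ratio of miR-378b to miR-378a-3p also separated the groups. It was 0.203, 0.22 and 0.237 in palmitic acid replicates 1, 2 and 3 and 0.0625, 0.112 and 0 in the controls. The means were 0.22 ± 0.0172 and 0.0583 ± 0.0563 (SD, n = 3 each, exact permutation p = 0.1, adjusted 0.2). Over the summed reads of a group, miR-378b made up 8.09% (4.11 to 14) of the pair in controls and 17.6% (17.0 to 18.2) with palmitic acid. These intervals did not overlap, but they leave out the spread between libraries. In control replicates 1, 2 and 3 the single-library intervals (0.149 to 28.7, 4.95 to 17.8 and 0 to 16.8) reached into that of palmitic acid replicate 1 (16.1 to 17.7), so the difference rests on 11 control reads in all.

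The ratio of miR-378d to miR-378a-3p did not separate the groups, with 0.0471 ± 0.0415 in controls against 0.0392 ± 0.00689 in palmitic acid libraries (SD, n = 3 each, exact permutation p = 0.8). Among palmitic acid libraries, miR-378d made up 4.22% (3.78 to 4.70), 4.06% (3.5 to 4.69) and 3.04% (2.32 to 3.91) of the pair. It was lowest in replicate 3, where the ratio of miR-378b was highest.

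**Figure D4:**
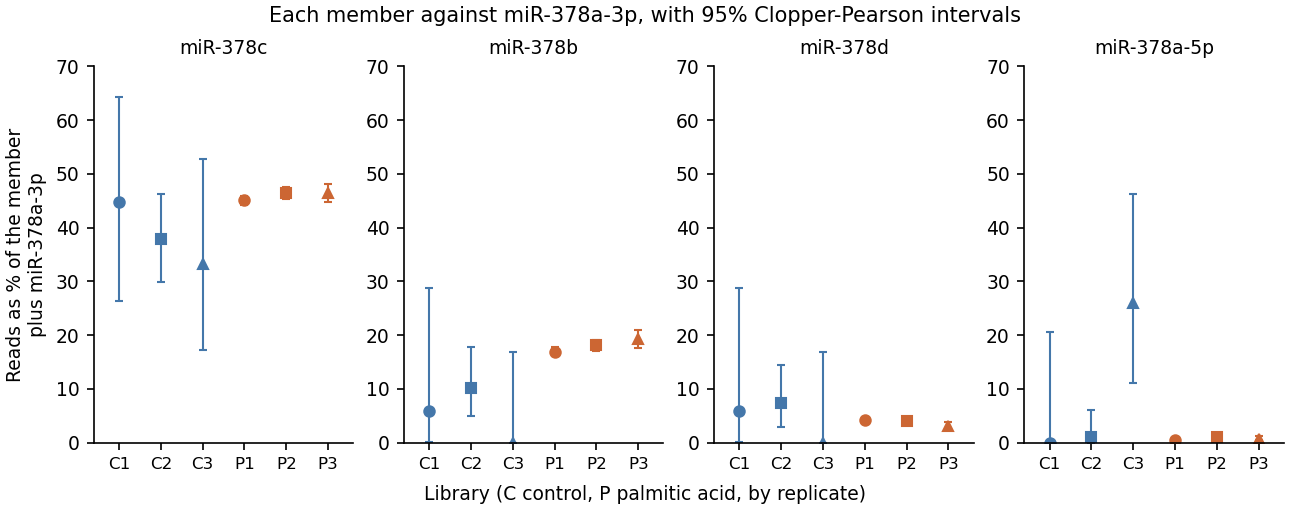
Reads of each member as a percent of its reads plus those of miR-378a-3p, by library (C1 to C3 control, P1 to P3 palmitic acid), with 95% Clopper-Pearson intervals for counting error. miR-378c stays at 45.1% to 46.4% in the palmitic acid libraries, miR-378b stands at 16.9% to 19.2% there against 0% to 10.1% in controls, and miR-378a-5p is high only in control replicate 3, at 25.9%.

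Mir378a is encoded on the minus strand of chromosome 18 (GRCm38, 61397835 to 61397900), within an intron of Ppargc1b and in its orientation. Its 2 arms were compared within each library as the log2 ratio of 3p to 5p, with 0.5 added to each adjusted count. The ratio was 5.95, 6.08 and 1.5 in the controls, in replicate order, against 7.83, 6.44 and 6.97 in palmitic acid libraries. The 3p arm led in all 6 libraries. The group means were 4.51 ± 2.61 and 7.08 ± 0.70 (SD, n = 3 each), a difference of 2.57 (exact permutation p = 0.1, the smallest possible). In control replicate 1 the 5p arm had no read, so 5.95 is set by the small adjusted count there and the added 0.5. The separation of the groups rests in part on that value. Control replicate 2 had 1 read of the 5p arm to 89 of the 3p arm. Its plain ratio of 5p to 3p reads, 0.0112, was level with the 0.0111 of palmitic acid replicate 2. As a plain ratio of 5p to 3p reads, the groups were at 0.12 ± 0.199 and 0.00765 ± 0.00343 (SD, n = 3 each) and overlapped (exact permutation p = 0.7, 0.8 adjusted over 4 ratios). The difference of 2.57 in the log2 ratio of 3p to 5p was 1.06 (exact permutation p = 0.2) without control replicate 3. That library had 7 reads of the 5p arm to 20 of the 3p arm. With palmitic acid the 5p arm had 92 reads in all to 13366 of the 3p arm, or 0.684% (95% Clopper-Pearson interval 0.551 to 0.838) of both. That interval is for counting error in the summed reads. The single libraries, in replicate order, were at 0.424%, 1.1% and 0.751%.

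The scale set for the libraries moved the members together. With library totals as the scale, the log2 changes of miR-378a-3p, miR-378c, miR-378b and miR-378d were 5.43, 5.85, 7.21 and 4.88, and 4 members passed. With totals of reads other than miR-122 they were 3.31, 3.73, 5.09 and 2.76, where miR-378d was not past the threshold (adjusted p = 0.0527). Relative to the median change of all tested miRNAs they were 2.51, 2.94, 4.26 and 1.94, and miR-378a-3p, miR-378c and miR-378b still passed (adjusted p = 0.0204, 0.0112 and 0.0174). On that scale 26.5% of the tested miRNAs were higher, 48 against 59 lower, where the deposited scale gave 76 and 26. Library totals gave 92 and 10, totals without miR-122 59 and 46, upper-quartile scaling 69 and 37, and centring on the median 65 and 40.

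**Figure D5:**
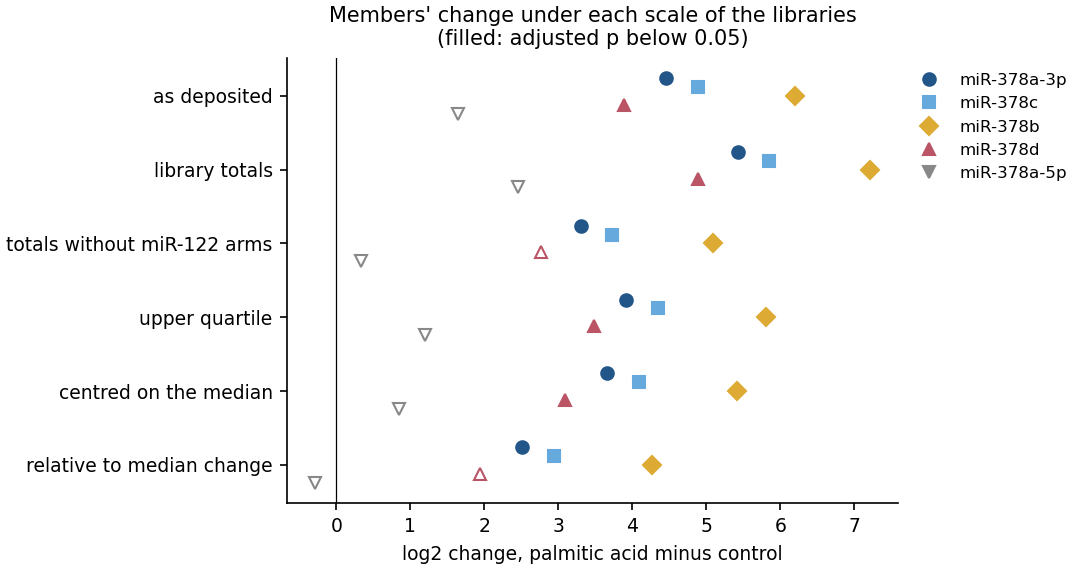
Log2 change of each member under 6 scales of the libraries; filled symbols have a limma adjusted p below 0.05. The order of the members is the same on every scale drawn, miR-378b furthest right and miR-378a-5p furthest left, and miR-378a-5p falls to -0.29 relative to the median change.

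The profiles nearest to miR-378a-3p over the 6 libraries were sought among the 180 other tested miRNAs, by the root mean square distance between log2 values centred on each miRNA's own mean. The median distance was 1.97. miR-378c was the nearest, at 0.29, and miR-378d (0.65) and miR-378b (1.09) were in places 11 and 38, while miR-378a-5p (2.01) was in place 96. The nearest from outside the family were miR-6240 (0.36), miR-1291 (0.38), miR-106b-5p, a miRNA of the growth-linked miR-17 family (0.43), miR-30a-5p of the miR-30 family (0.52) and miR-1839-5p (0.52). In each of these 5, as in miR-378a-3p, control replicate 2 was the highest control and palmitic acid replicate 1 the highest library. They were picked for nearness to that profile, so this shared order is no separate result. miR-6240, for example, stood at 4.33, 6.85 and 3.30 in controls against 10.07, 9.21 and 8.84 in palmitic acid libraries. All of the 5 but miR-30a-5p passed the filter only through the palmitic acid libraries. In controls, miR-106b-5p stood at only 0.44, 2.03 and 0.26. These libraries share their depth and scale, and members may share reads, so the distance is a description.

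Other miRNAs housed in metabolic or contractile genes, as miR-378a is in Ppargc1b, were mostly scarce. Of 15 listed, 8 had reads and 2 were tested, miR-103-3p and miR-107-3p, which come from introns of pantothenate kinase genes. Both were called higher, against 42.0% of all tested miRNAs, but both passed the filter only through the palmitic acid libraries, so the count is no support. miR-103-3p rose by 4.94 (SE 1.09, limma adjusted p = 0.00518), from 18, 2 and 1 reads in controls to 917, 913 and 444. miR-107-3p rose by 4.34 (SE 1.18, limma adjusted p = 0.0136), from 7, 3 and 0 reads to 306, 360 and 193. Of 16 alternatives, 3 ended that call (adjusted p 0.00383 to 0.119 over the 16), one of them the fit without palmitic acid replicate 1. miR-33-3p, from an intron of the cholesterol regulator Srebf2, had 0 control reads and 26, 22 and 7 with palmitic acid, and miR-335-3p, from Mest, had 0, 18 and 34 reads against 0, 4 and 1. Neither was tested.

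Of 29 other miRNAs linked to hepatic lipid, mitochondrial or brown fat metabolism, 22 were tested, of which 14 rose, against 42.0% of all tested miRNAs, 1 fell and 7 were not called. Without palmitic acid replicate 1, 2 or 3, 6 were called higher in each case, of 18, 18 and 17 tested. In these fits 19.2%, 21.9% and 23.2% of all tested miRNAs were called higher. With all libraries the median log2 change of the 22 was 2.71, against 1.94 over all tested miRNAs. Of the 14, 5 passed the filter only through the palmitic acid libraries (miR-29c-3p, miR-34a-5p, miR-130a-3p, miR-185-5p and miR-365-3p), and miR-34a-5p and miR-365-3p had no control read. Relative to the median change, where 26.5% of all tested miRNAs were higher and 59 of 181 lower, the list had 5 and 4. The most abundant were miR-122-5p, the main hepatocyte miRNA, at -3.56 (limma adjusted p = 0.0141, lost in 3 of 16 alternatives, among them the fit without palmitic acid replicate 3), miR-148a-3p at 0.83 (0.453), miR-21a-5p at 3.89 (2.4e-04) and miR-192-5p at 1.94 (0.0259, lost in 10 of 16 alternatives, with adjusted p 1.4e-04 to 1 over all). The difference between these changes and those of the miR-378 members was not tested.

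Because miR-378a is also a muscle miRNA, striated muscle markers were read beside it. The only one tested, miR-206-3p, fell by 5.06 (SE 0.80, limma adjusted p = 0.00105), and the summed level of the 12 markers was 95.8 to 2362 RPM in controls and 26.3 to 51.3 RPM with palmitic acid. 9 of the 12 had no read in any library, among them miR-133a-3p, miR-133b-3p and miR-499-5p, and miR-1a-3p had 4 reads in control replicate 1 alone. The sum is thus nearly all miR-206-3p, and its part in the miR-378 values was not tested.

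The labelled cell type was checked against 8 hepatocyte miRNAs, which all had reads. Together they made up 638610.4 to 825451 RPM in controls and 325697 to 471746 RPM with palmitic acid. Leaving out miR-122, in RPM of the other reads, the list summed to 228858 to 675489 against 261812 to 418204, which overlapped. Of 7 tested, those called higher were miR-101a-3p, miR-101b-3p and miR-192-5p, the single one called lower was miR-122-5p, and 3 were not called. That is 3 of 7 higher, where 42.0% of all tested miRNAs were. Markers of other cells differed in part with the groups. Erythroid markers (4 listed, with miR-144-3p at 0) summed to 39.5 to 6320.3 RPM in controls and 29.3 to 167 RPM with palmitic acid, and immune markers (6) to 206 to 1617 against 202 to 398 RPM. Stellate cell and fibroblast markers (5) summed to 167 to 2478 against 519.8 to 642 RPM, and endothelial markers (3) to 906 to 3559 against 3914 to 5154 RPM. In RPM of reads other than miR-122, the endothelial sum was instead lower with palmitic acid, 7381 to 17074 against 4622 to 5839.6. By that measure the stellate sum was 1362 to 8043 against 589 to 758, and the immune sum 989 to 5248 against 232 to 451. The erythroid sum was 322 to 20516 against 33.7 to 189. Among the tested miRNAs of these last lists, 1 of 2 erythroid (miR-486a-5p) and 1 of 2 immune (miR-146a-5p) fell, and 0 of 3 stellate and 0 of 2 endothelial were called. Those calls were lost in 4 of 13 alternatives for miR-486a-5p and in 7 of 16 for miR-146a-5p. Relative to the median change, all 3 tested stellate and both tested endothelial markers were called lower, as were 59 of all 181 tested miRNAs. The part of these markers in the change of the miR-378 family was not tested.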

How the data were processed

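Per the labels' protocols, RNA was extracted with Trizol and prepared by NEBNext Multiplex small RNA chemistry. Bowtie2, bedtools, GRCm38 and mm10 appear in the submitters' processing notes. For their roles, the annotation of miRNAs and the assignment of reads, nothing is given in the sources used here. The deposited table is named raw counts, but its values are log2(adjusted count + 1), judged from the values.

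From the values, adjusted counts match negative binomial quantiles moved to 1 common library size (fitted dispersion 1.39). Inverting this step gave whole reads: 100.00% of 4387 values came out whole within 0.0015 (log2), for values whose neighbouring read numbers lay 0.02 or more apart. The members' reads were fixed to within 1 read. In 108 rows values above 0 stood without a read, so other libraries, not analysed here, could also have been part of that step. RPM, shares and ratios use recovered reads.

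The deposited log2 values were fitted by group in limma 3.58.1 under R 4.3.3 (trend option on). Only miRNAs that reached an adjusted count of 10 in 3 or more libraries entered, and Benjamini-Hochberg adjustment ran over all of these. Exact permutation tests are two-sided. Inversion and test were checked on simulated data. Members, lists and tests were chosen with earlier results of these data known. Named miRNAs were the members, in each list at most the 4 most abundant and, where 5 or fewer passed, those that did, and the 5 nearest profiles; markers without reads, miR-29c-3p, miR-34a-5p, miR-130a-3p, miR-185-5p and miR-365-3p were added after their values were seen. Alternatives were other scales, filters, a pseudocount of 5, no trend, a replicate block and leaving out each library.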

Additional observations from a re-analysis of the deposited data

How the results depend on the processing

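Of the 4 or 5 members tested, between 3 and 4 were called higher and 0 lower in all 16 alternatives. Among all tested miRNAs, 8.32% (no filter on low values) to 50.8% (library totals) were called higher. In the 6 fits that left out 1 library, 3 to 4 members were higher and 0 lower. There, 19.2% to 49.7% of all tested miRNAs were higher. miR-378a-3p (adjusted p 7.4e-06 to 0.0256), miR-378c (3.0e-06 to 0.022) and miR-378b (2.5e-04 to 0.0297) passed in all 16. miR-378d was lost in 6, among them no filter on low values (adjusted p = 0.0868) and relative to the median change (1.94, 0.193). miR-378a-5p did not pass in any of its 12 and turned to -0.29 relative to the median change; in the other 4 it did not pass the filter. The log2 ratio of the family total was 5.70 with library totals against 4.38, and 3.74 to 5.59 with 1 library left out. The share of miR-378a-5p, lower by 6.15 percentage points with palmitic acid, ran from -9.41 to 0.0487 with 1 library left out, where it turned without control replicate 3. That of miR-378d (-0.669) ran from -1.93 to 0.243 and turned without control replicate 2. The arm ratio difference kept its sign in its 10 alternatives (1.06 to 3.35), each with a constant added to both arms. It was smallest, at 1.06, without control replicate 3.

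Same-numbered libraries of the 2 groups correlated at 0.21, 0.15 and 0.04 in their deviations from the group means over the tested miRNAs. Such values do not settle whether these libraries share an animal or culture, which the labels do not state. Control replicates 1 and 2 correlated best with their own number, control replicate 3 with palmitic acid replicate 2 (0.06). With a replicate block, 4 members were higher and 0 lower, as without it, over 83 higher and 28 lower in all against 76 and 26. With the block the exact permutation test of the arm ratio difference of 2.57 by pairs gave p = 0.25, the smallest that 3 pairs allow. Over all tested miRNAs, no filter gave 88 higher and 60 lower of 1058, and leaving out a palmitic acid library gave 28 to 33 higher and 18 to 19 lower of 142 to 146. Control reads limit the precision: 1 read in a control library is worth more than 1 with palmitic acid, by a 5.64-fold ratio of the library factors.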
